A study of Mus musculus with 8 samples.

Results

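The cytosolic ribosomal protein genes were examined in fat of the epididymal depot, a white adipose tissue (WAT), in mice. Members were taken by symbol, as Rpl (large subunit) or Rps (small subunit) followed by a number with an optional a, x or l, together with the P-stalk genes Rplp0, Rplp1 and Rplp2, leaving out the Rps6k kinases and pseudogenes. The array annotation named 60 such genes (38 large, 22 small) through 76 probes, and 53 of them (32 large, 21 small) were detected well enough to be compared, out of 8285 genes compared in all. The 8 samples were epididymal fat from C57BL6/J males 4 months old, all kept on a low fat diet per the paper's methods. Each was read on 1 array of the Illumina mouse BeadChip platform. By the labels, 4 were from Agt Tg mice, in which white fat overexpresses angiotensinogen, the protein from which angiotensin is cut, and the other 4 were wild type (Wt). Per the paper, the aP2 promoter that drives the transgene is also active in macrophages. Whether each sample came from a separate mouse is not stated outright. The p-values thus cover the spread among these 8 arrays, which may be technical, and precision is bounded by so few arrays.

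Between 11253 and 12284 probes were detected per array, median intensity ran from 125 to 154, and arrays of the same group correlated at 0.956 to 0.986. Of 9 listed white adipocyte markers 8 were compared, 7 of them detected on all 8 arrays and Retn on 2 Agt Tg and 3 Wt arrays, with a mean log2 intensity of 10.35 to 11.08 in Agt Tg and 10.61 to 10.95 in Wt. The Agt probe did not read above Wt where the label is Agt Tg. It read 6.72, 8.78, 6.37 and 8.37 on the log2 scale in Agt Tg replicates 1 to 4 and 7.47, 8.85, 8.09 and 8.07 in Wt replicates 1 to 4, a difference of -0.56 ± 0.48 (SE, limma adjusted p = 0.718). Every direction given here therefore refers to the arrays labelled Agt Tg minus those labelled Wt.

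The cytosolic ribosome translates all messenger RNAs of the nucleus. Its large subunit forms peptide bonds and holds the exit tunnel for the growing chain, and its small subunit decodes the message. The proteins are needed in equal amounts, and their messenger RNAs share a run of pyrimidines at the very start, the terminal oligopyrimidine (TOP) motif, through which the kinase mTORC1 sets their translation. In adipose tissue, as elsewhere, each cell type carries these messages, and their amount follows the growth and protein synthesis of the cells.

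Most members read lower in the Agt Tg arrays, by small amounts. Of the 53 members, 42 were lower and 11 higher (79.2% lower, against 48% of all genes compared), with a median difference of -0.17 on the log2 scale against 0.01 over all genes. None passed the test across all genes (limma, Benjamini-Hochberg adjusted p under 0.05), where the lowest adjusted p of a member was 0.346, and 0% of all genes were called at that threshold. At an unadjusted limma p under 0.05, 10 members were lower and 0 were higher. That is 18.9% of members lower, beside a background of 5.33% of all genes lower and 3.93% of all genes higher. The groups did not overlap for 4 members, all lower, which is 7.55% of members against 3.31% of all genes, while 0 members were higher without overlap against 3.05% of all genes.

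Large and small subunit genes had similar differences. Of 32 large subunit genes 25 were lower, with a median of -0.17, and 7 of them were at unadjusted p under 0.05. Of 21 small subunit genes 17 were lower, with a median of -0.13, and 3 were at that threshold. The quartiles of the differences were -0.36 and -0.01 for the large subunit and -0.26 and -0.02 for the small subunit, so the ranges of the subunits lay over each other. With each array scaled by its median in place of quantile normalization, the median difference over all genes was -0.12. Of all genes, 9.81% were lower and 0.604% higher at unadjusted p under 0.05 in that setting. The members then had a median of -0.24, which was -0.12 relative to all genes. Of the 53 members 48 were lower, while 68.2% of all genes were lower too. At unadjusted p under 0.05, 13 members were lower and 0 higher.

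**Figure D1:**
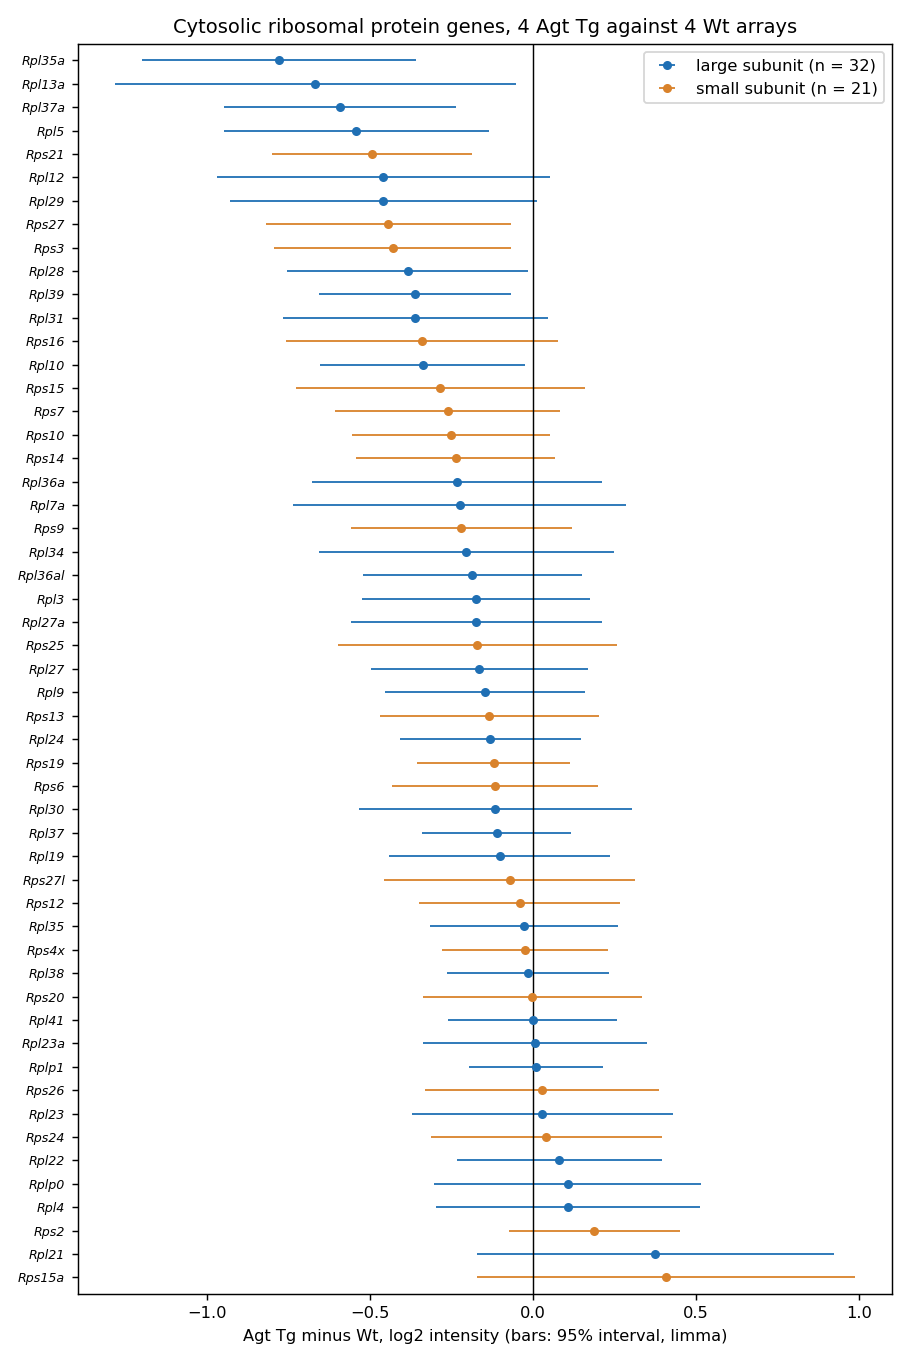
Difference in log2 intensity (Agt Tg minus Wt, x axis) for each of the 53 ribosomal protein genes, sorted by difference, with 95% intervals from limma. Blue points are the 32 large and orange points the 21 small subunit genes, and 42 of the 53 points lie left of 0.

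In the large subunit, Rpl35a had the largest difference. Its probe read 9.84, 9.03, 9.58 and 9.65 in Agt Tg replicates 1 to 4 and 10.64, 10.05, 10.24 and 10.29 in Wt replicates 1 to 4 (log2 intensity). Every Agt Tg array lay below every Wt array, with a difference of -0.78 ± 0.19 (SE), or 1.72-fold lower (limma adjusted p = 0.346). In humans, RPL35A is one of the genes mutated in Diamond-Blackfan anaemia, a failure of red cell production caused by defects of the ribosome.

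Rpl37a, which encodes a zinc finger protein of the large subunit, read 11.33, 10.61, 11.22 and 11.18 in Agt Tg and 11.81, 11.65, 11.55 and 11.70 in Wt. The groups did not overlap, although 3 of the Agt Tg arrays lay close together and replicate 2 lay apart below them. The difference was -0.59 ± 0.16 (SE, limma adjusted p = 0.346). Rpl39, a very small protein that lines the exit tunnel, read 11.84, 11.54, 11.98 and 11.78 in Agt Tg and 12.01, 12.07, 12.19 and 12.31 in Wt. These groups also stood apart, but only just, since Agt Tg replicate 3 and Wt replicate 1 nearly met. The difference was -0.36 ± 0.14 (SE, limma adjusted p = 0.449).

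Rpl5, which carries the 5S ribosomal RNA into the large subunit and can bind the p53 regulator Mdm2, read 10.40, 9.94, 10.22 and 10.39 in Agt Tg and 10.96, 10.62, 10.37 and 11.16 in Wt. The groups overlapped only through Wt replicate 3, which lay below 2 Agt Tg arrays. The difference was -0.54 ± 0.19 (SE, limma adjusted p = 0.404). Rpl13a, used in many laboratories as a reference gene, read 7.82, 6.85, 8.03 and 7.56 in Agt Tg and 8.42, 7.55, 8.57 and 8.39 in Wt. Its difference was -0.67 ± 0.28 (SE, limma adjusted p = 0.484) with a wide 95% interval of -1.28 to -0.05, and it was -0.43 without background correction and -0.45 in the authors' log2 values. Its spread within each group was also wide (SD 0.516 in Agt Tg and 0.464 in Wt, n = 4 each), and Wt replicate 2 lay below 3 Agt Tg arrays. Rpl10, among the last proteins to join the large subunit, read 13.21, 12.81, 13.10 and 12.93 in Agt Tg and 13.31, 13.09, 13.66 and 13.33 in Wt, a difference of -0.34 ± 0.15 (SE). Rpl28 read 12.21, 11.78, 11.88 and 11.74 in Agt Tg and 12.63, 11.93, 12.14 and 12.45 in Wt, a difference of -0.39 ± 0.17 (SE). In both the groups overlapped, for Rpl10 through Wt replicate 2 and for Rpl28 through Agt Tg replicate 1.

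In the small subunit, Rps21 was the clearest case. It read 11.78, 11.49, 11.66 and 11.39 in Agt Tg and 12.06, 11.83, 12.12 and 12.28 in Wt, with no overlap. The difference was -0.49 ± 0.14 (SE), or 1.41-fold lower (limma adjusted p = 0.346). Rps3, which lies where messenger RNA enters the ribosome, read 12.03, 11.58, 12.16 and 11.57 in Agt Tg and 12.21, 12.04, 12.29 and 12.52 in Wt. Agt Tg replicates 2 and 4 were low, and replicates 1 and 3 lay near the lower Wt arrays. The difference was -0.43 ± 0.17 (SE, limma adjusted p = 0.461). Rps27, another zinc finger protein, also had Agt Tg replicates 2 and 4 low, at 12.07, 11.59, 12.04 and 11.46 in Agt Tg against 12.45, 12.08, 11.99 and 12.43 in Wt, and differed by -0.44 ± 0.17 (SE, limma adjusted p = 0.462).

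**Figure D2:**
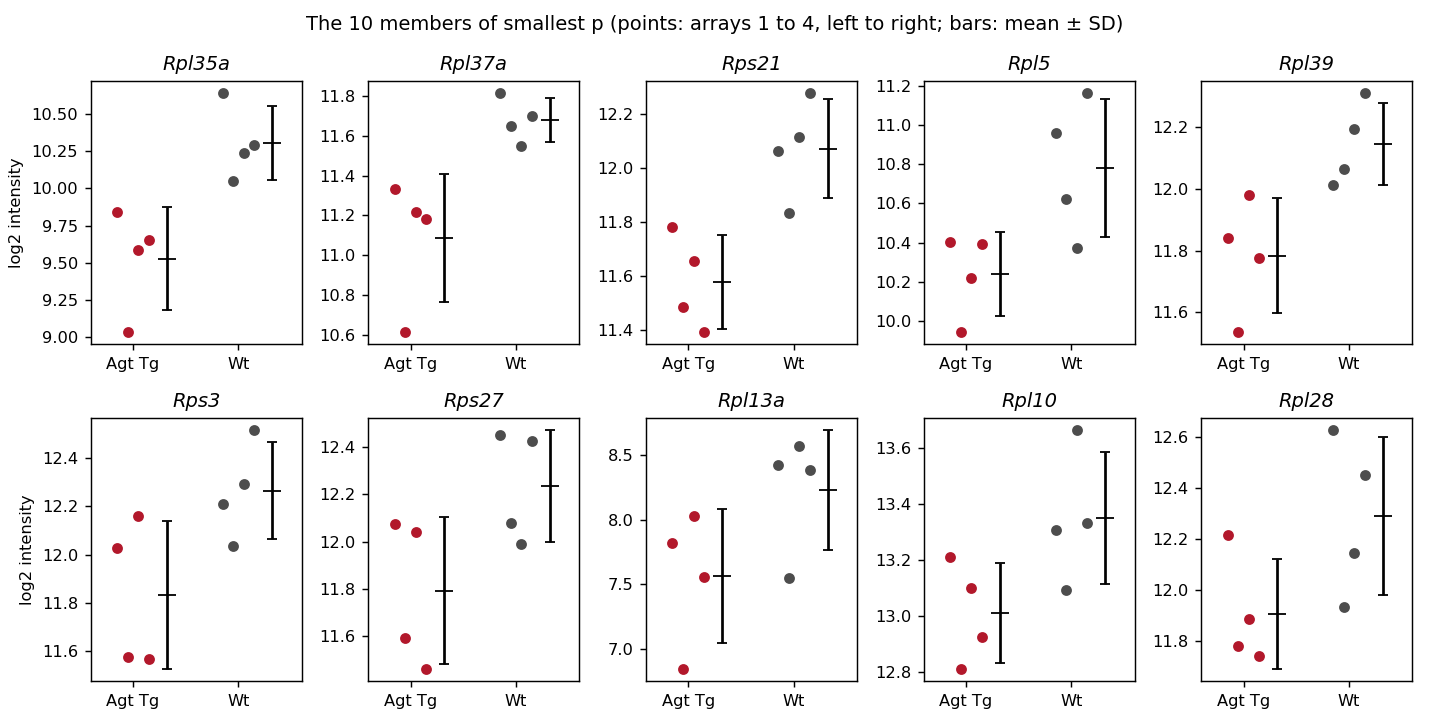
Log2 intensity (y axis) of the 10 members with the smallest p, with Agt Tg arrays in red and Wt arrays in grey, replicates 1 to 4 from left to right within each group, and the mean ± SD beside them. For Rpl35a, Rpl37a, Rps21 and Rpl39 all red points lie below all grey points, and the y axes differ between genes.

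Transcription start regions are shown for 6 of the lower members and for Rps6, because the pyrimidine run at the start is the sequence feature that ribosomal protein messages share. They are examples, mostly with a tract by the rule below. Of the lower members not printed, Rpl5, Rps3 and Rpl10 had no such tract and Rpl13a did. RefSeq windows on build GRCm38.p6, from 250 bases before to 50 after the annotated start, were matched for 45 of the 53 members. The stretch printed holds 10 bases before the start and the first 20 bases of the transcript, 5′ to 3′ on the gene's strand, and capitals mark the longest tract of a C followed by at least 5 letters that are all C or T, whose first C lies within 10 bases of the start. The regions are chr16:33056472-33056501 (+) for Rpl35a, chr2:180257369-180257398 (+) for Rps21, chrX:37085203-37085232 (-) for Rpl39, chr3:90213629-90213658 (-) for Rps27, chr7:4792955-4792984 (+) for Rpl28, chr4:86857348-86857377 (-) for Rps6 and chr1:72711250-72711279 (+) for Rpl37a, which had no such tract.
Rpl35a: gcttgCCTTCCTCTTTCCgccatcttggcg
Rps21: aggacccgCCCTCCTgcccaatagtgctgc
Rpl39: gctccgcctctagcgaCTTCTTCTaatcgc
Rps27: cgctttcgCTCCTTTCCggcggtgacgacc
Rpl28: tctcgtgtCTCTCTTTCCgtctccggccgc
Rps6: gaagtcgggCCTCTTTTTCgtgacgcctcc
Rpl37a: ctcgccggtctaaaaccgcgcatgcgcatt

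A tract of this kind was found in 24 of 45 members (53.3%), in 24% of all genes compared that had a window and in 21.9% of all genes in the table. It was present in 12 of 26 large and 12 of 19 small subunit genes. Among the 10 members at unadjusted p under 0.05 it was found in 6, and among the other members with a window in 18 of 35. The median difference was -0.19 for the 24 members with a tract and -0.17 for the 21 without, so the members with and without the tract read lower by about the same amount. The letters CTTCCG or CGGAAG, the core bound by ETS family factors, occurred anywhere in the 300 bases on either strand in 33 of 45 members (73.3%), against 34.5% of all genes compared with a window. The median difference was -0.17 for members with these letters and -0.16 for those without. GGGCGG or CCGCCC, the GC box, was in 62.2% of members and 68.4% of all genes compared, with a median difference of -0.17 both with and without it. TATAAA or TTTATA, the letters of the TATA box, occurred anywhere in the window in 11.1% of members and 9.46% of all genes compared. Position was not asked for, so such a match need not be a TATA box. The 5 members with these letters had a median of 0.08, with 2 of 5 lower, against -0.17 and 35 of 40 lower for those without. These matches describe the annotated sequence alone, and an annotated start may lie some bases from the one used in fat. The members lay on 16 chromosomes, with at most 9 on 1 of them, chromosome 7, where 8 of 9 were lower.

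For every member that read higher, the 95% interval of the difference included 0. Rps2, a small subunit protein near the entry channel for messenger RNA, read 14.36, 14.39, 14.58 and 14.53 in Agt Tg and 14.07, 14.28, 14.50 and 14.26 in Wt. Only Wt replicate 3 lay among the Agt Tg arrays, and the difference was 0.19 ± 0.12 (SE, limma adjusted p = 0.618). Rps15a differed by 0.41 ± 0.27 (SE) and Rpl21 by 0.38 ± 0.25 (SE), both measured by dim probes with mean log2 intensity of 6.07 and 6.41. Without background correction these differences were 0.16 and 0.14, and in the authors' log2 values 0.17 and 0.16. Rpl4, part of the exit tunnel wall, differed by 0.11, Rpl22 by 0.08, Rps24 by 0.04, Rps26 by 0.03 and Rpl23 by 0.03, and these 5 turned negative under median scaling. Of the higher members Rps2 had the smallest p.

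The P-stalk recruits elongation factors to the large subunit. Its base Rplp0, another common reference gene, differed by 0.11 ± 0.19 (SE, 95% interval -0.30 to 0.52) and turned negative (-0.09) under median scaling. Rplp1 read 15.14 to 15.22 on all 8 arrays and ranked between 1 and 3 among all probes on each. Quantile normalization gives the same values to the same ranks, so the top of the scale leaves Rplp1 little room to differ, and its difference was 0.01 ± 0.10 (SE). In the deposited intensities before normalization, Rplp1 read 32502, 41508, 36534 and 45271 in Agt Tg and 39936, 31581, 40844 and 36517 in Wt, with overlapping groups. Rplp2 was detected on 1 array and was not compared.

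Rps6, the small subunit protein that S6 kinases phosphorylate, read 12.74, 12.44, 12.68 and 12.66 in Agt Tg and 13.03, 12.42, 12.69 and 12.86 in Wt. The groups overlapped, and the difference was -0.12 ± 0.15 (SE, 95% interval -0.43 to 0.20). Some members come as close relatives with similar sequence, between which a probe may not tell fully. Rpl36a differed by -0.23 ± 0.20 and its relative Rpl36al by -0.19 ± 0.16 (SE). Rps27 differed by -0.44 ± 0.17 and its relative Rps27l by -0.07 ± 0.18 (SE), a contrast that was not tested. Rps4x, the X-linked gene of its protein, differed by -0.02 ± 0.12 (SE). Processed pseudogenes are many in this family, and cross-hybridisation of their transcripts to these probes was not tested.

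For 9 members more than 1 probe was kept, and the probes did not always go the same way. In 4 of the 9 all probes were lower: Rps3 (-0.43 and -0.74), Rps9, a small subunit protein (-0.22 and -0.74), Rpl31 (-0.36 and -0.34) and Rpl38 (-0.02 and -0.16). For the other 5 the signs differed between probes. The brightest probe of Rpl23, a large subunit protein that can bind Mdm2, gave 0.03 ± 0.18, while its other probes gave -0.43 ± 0.12 (limma adjusted p = 0.346) and -0.48 ± 0.19 (SE). For Rpl29 the brightest probe gave -0.46 ± 0.22 and the other 0.06 ± 0.15. Rps19, the gene most often mutated in human Diamond-Blackfan anaemia, gave -0.12 ± 0.11 and 0.25 ± 0.25, Rps24 gave 0.04 ± 0.16 and -0.30 ± 0.29, and Rpl21 gave 0.38 ± 0.25 and -0.09 ± 0.30 (SE). The members named by the annotation but not kept were Rpl14, Rpl17, Rpl39l, Rpl3l, Rpl6, Rplp2 and Rps23, each with 1 probe detected on at most 2 arrays.

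The differences were not spread evenly over the range of signal. Of the 14 members with a mean log2 intensity of 10 to 12, 13 were lower, with a median of -0.31, while the 1100 other genes of that range had a median of 0.02. Of the 25 members between 12 and 14, 21 were lower, with a median of -0.13 (0.02 for 297 other genes). The 5 members above 14 were Rpl41, Rpl38, Rps20, Rps2 and Rplp1, with a median of -0.00069 (0.01 for 26 other genes), and 0 of them were at unadjusted p under 0.05. The 9 members under 10 had a median of -0.17, with 5 lower and 4 higher. A probe's brightness depends on its own sequence too, so these ranges give no order of transcript levels. In all, 38 members were among the 828 brightest genes, and the 790 other genes there had a median of 0.02, with 3.8% lower and 4.05% higher at unadjusted p under 0.05.

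**Figure D3:**
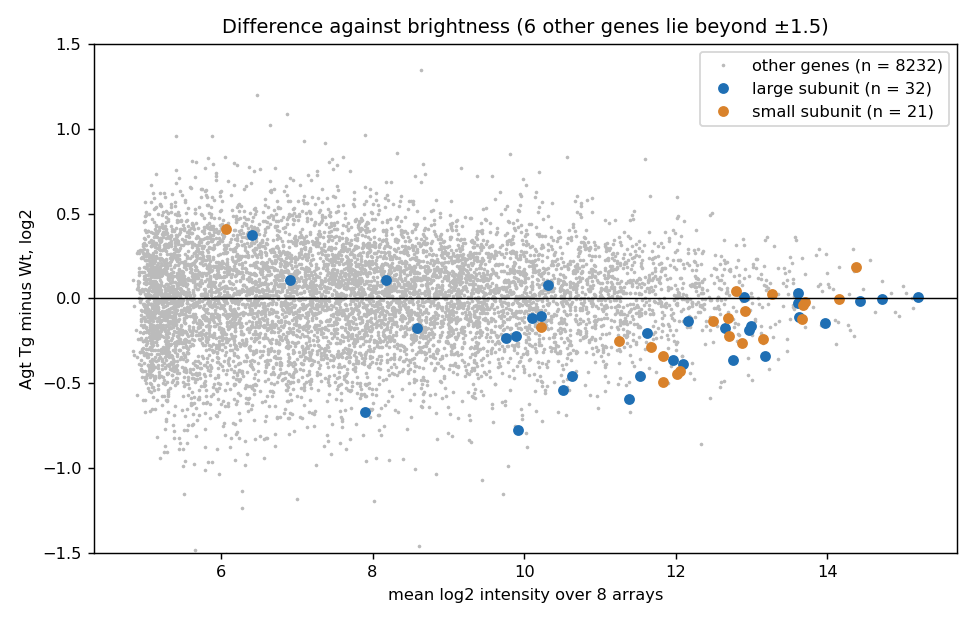
Difference (Agt Tg minus Wt, log2, y axis) against mean log2 intensity over the 8 arrays (x axis) for 8232 other genes (grey), 32 large (blue) and 21 small subunit genes (orange). Members between 10 and 14 lie mostly below 0, and the 5 above 14 have a median close to 0.

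The members did not shift equally on all arrays of a group. For each gene the mean over the 8 arrays was subtracted, and the deviations were averaged over the 53 members on each array. Agt Tg replicates 1 to 4 stood at 0.0196, -0.287, 0.0448 and -0.125 (log2), and Wt replicates 1 to 4 at 0.186, -0.0504, 0.0482 and 0.164. The groups overlapped on this measure, with Agt Tg replicates 2 and 4 lowest, Wt replicates 1 and 4 highest, and the other 4 arrays close to 0. Agt Tg replicate 2 was the lowest of the 8 arrays for 21 members (39.6%, against 16.4% of other genes) and lay below the gene's own mean for 48 of 53. Wt replicate 1 was the highest array for 17 members (32.1%, against 11% of other genes) and Wt replicate 4 for 12 (22.6%, against 7.86%). The 790 other genes among the 828 brightest, where 38 of the 53 members lay, averaged between -0.0196 and 0.0149 on every array. Quantile normalization gives every array the same set of values, so a mean over so many bright genes can differ little between arrays. It is therefore no check on the shifts of the members.

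The subunits followed each other across the arrays. On Agt Tg replicate 2 the mean deviation was -0.296 for the large and -0.274 for the small subunit, on Agt Tg replicate 4 -0.136 and -0.109, on Wt replicate 1 0.219 and 0.136, and on Wt replicate 4 0.146 and 0.191. They parted most on Wt replicate 3, at 0.0848 for the large and -0.00742 for the small subunit. That array was divided within both subunits, being the highest array for 13 members and the lowest for 12. Rpl31, for example, read 13.51 there and 12.55 to 12.89 on the other Wt arrays, while Rps27l read 12.42 there and 13.02 to 13.24 on the others. Wt replicate 3 was also the array most often lowest (20.2%) and highest (20.1%) for all other genes.

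**Figure D4:**
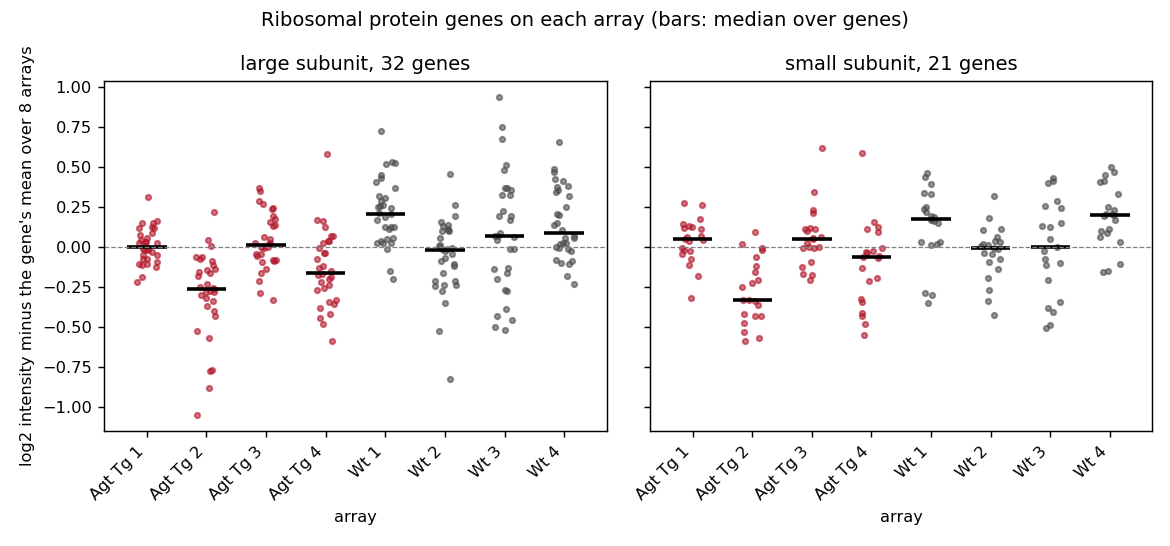
Log2 intensity of each member minus the gene's own mean over the 8 arrays (y axis), by array (x axis), for 32 large (left) and 21 small subunit genes (right); bars are medians over genes. Agt Tg replicate 2 is lowest in both panels, and Wt replicate 3 has the widest spread.

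Leaving out single arrays moved the count of members at unadjusted p under 0.05. From 10, all lower, it fell to 4 lower and 1 higher on omitting Agt Tg replicate 2 (4.84% and 3.49% of all genes). It fell to 5 lower on omitting Agt Tg replicate 4 (4.62% of all genes lower). It was 6 lower without Wt replicate 1 (3.77%) and 4 lower without Wt replicate 4 (4.61%). The median difference stayed negative, between -0.21 and -0.12, over the 8 omissions. With 3 arrays against 4, fewer values need to stand apart, and the share of all genes whose groups did not overlap rose too. On omitting Agt Tg replicate 1, 8 members were lower without overlap (5.14% of all genes), and on omitting Wt replicate 2 there were 10 (5.36% of all genes). On omitting Wt replicate 3 there were 7, of which 6 were lower (6.08% of all genes) and 1 higher (6.25% of all genes).

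Markers of 3 kinds of immune cell and of fibroblasts were, like the members, lowest on Agt Tg replicate 2. In bulk tissue, fewer cells of a type and less RNA per cell cannot be told apart. The 8 of 10 listed macrophage markers that were compared averaged 0.388, -0.706, 0.373 and -0.478 in Agt Tg replicates 1 to 4 around their own mean, and 0.399, -0.124, -0.159 and 0.305 in Wt. Agt Tg replicates 2 and 4 were the lowest arrays, as for the members. The 7 of 10 T and NK cell markers averaged 0.302, -0.775, -0.275 and -0.0888 in Agt Tg and 0.26, -0.249, 0.285 and 0.541 in Wt. All 7 were lower in Agt Tg, 2 of them (28.6%) at unadjusted p under 0.05, against 5.33% of all genes lower (Cd3e and Cd3d, chains of the T cell receptor complex). Of the macrophage markers 5 of 8 were lower and 1 was at that threshold, the scavenger receptor gene Cd163 (-1.20 ± 0.20, SE, limma adjusted p = 0.223), whose groups did not overlap. The 5 of 9 B and plasma cell markers were all lower too, 2 of them at that threshold (Mzb1, -1.99, and Cd79b, -1.23), and averaged -0.729, -1.55, -0.55 and 0.569 in Agt Tg and 0.624, 0.0923, -0.412 and 1.96 in Wt. Mzb1 and Cd79b were each detected on 3 Agt Tg and 4 Wt arrays. White adipocyte markers averaged -0.196, 0.312, -0.389 and 0.339 in Agt Tg and -0.0635, 0.214, -0.127 and -0.0895 in Wt, highest on the arrays where the members were lowest. This mean leans on Fabp4, which read 7.137, 9.003, 6.783 and 9.81 in Agt Tg (SD 1.46) and varied little in Wt (SD 0.106). On Agt Tg replicate 2, Lep (14.64) and Cidec (12.24) were at their lowest in Agt Tg. Lipe, Adipoq, Pparg, Retn and Plin1 read higher there than on Agt Tg replicates 1 and 3. The 5 fibroblast markers stood at 0.211, -0.404, 0.101 and -0.0406 in Agt Tg and 0.171, 0.15, -0.352 and 0.163 in Wt. Like the adipocyte mean, the means of 6 endothelial markers (0.221 and 0.177) and of 2 of 6 listed epididymis markers (0.503 and 0.804) were highest on Agt Tg replicates 2 and 4. Of the endothelial markers 4 were lower and 2 higher in Agt Tg. Both epididymis probes were dim, and Adam7 was detected on 3 Agt Tg arrays and 1 Wt array. The 4 mesothelial markers stood at 0.188 and 0.317 on Agt Tg replicates 2 and 4, between -0.384 and 0.122 elsewhere.

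As levels, the mean log2 intensity of the macrophage markers ran from 9.445 to 10.54 in Agt Tg and from 9.992 to 10.55 in Wt. That of the T and NK cell markers ran from 5.668 to 6.745 and from 6.194 to 6.984, and that of the B and plasma cell markers from 4.76 to 6.883 and from 5.902 to 8.274. The defining marker Ms4a1 of B cells was detected on 2 arrays, and Cd8a, which marks a subset of T cells, on 0. Cd3e and Cd3g were detected on 4 arrays of each group, and Cd3d on 2 Agt Tg and 4 Wt arrays. With the macrophage marker mean of each array as a covariate, an alternative chosen after the data were seen, the members' median difference was -0.11. At unadjusted p under 0.05, 9 were lower and 0 higher, beside 6.7% of all genes lower and 5.91% higher. With the T and NK cell marker mean as covariate, chosen likewise, the median was -0.05, with 34 of 53 members lower (48.8% of all genes). In that fit 3 were lower and 1 higher at unadjusted p under 0.05, beside 3.96% of all genes lower and 3.36% higher. These marker means were themselves lower in Agt Tg, so covariate and genotype share part of their variation and their parts cannot be told apart.

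**Figure D5:**
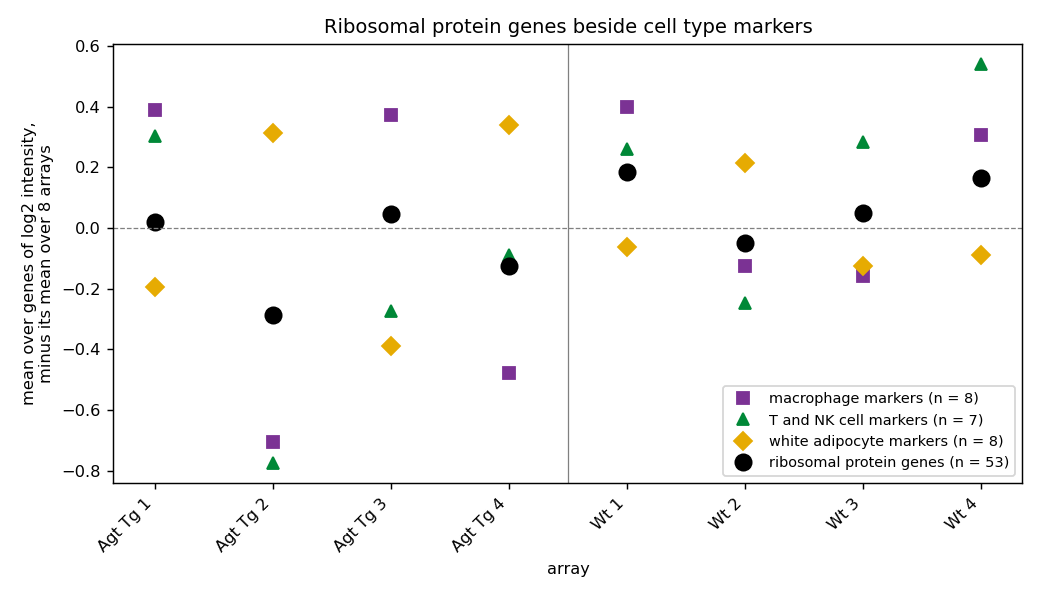
Mean over genes of log2 intensity minus its mean over the 8 arrays (y axis) on each array (x axis), for the 53 ribosomal protein genes (black), macrophage, T and NK cell and white adipocyte markers. On Agt Tg replicate 2 the members (-0.287), macrophage (-0.706) and T and NK cell markers (-0.775) are all lowest, while adipocyte markers (0.312) are high.

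Other genes of ribosome production and translation were examined beside the members, and none of them passed the adjusted threshold either. Their counts at unadjusted p under 0.05 stand against 5.33% of all genes lower and 3.93% higher. Mitochondrial ribosomal protein genes, whose products form the separate ribosome of the mitochondrion, were lower in 45 of 68, with a median of -0.10. At unadjusted p under 0.05, 10 of them were lower (14.7%) and 2 higher (2.94%), led by Mrpl16 (-0.81 ± 0.20) and Mrpl11 (-0.65 ± 0.17, SE). Of 39 genes of ribosome biogenesis 18 were lower, with a median of 0.01 and a mean of -0.08. The groups did not overlap for 5 of these, all lower (12.8%, against 3.31% of all genes). At unadjusted p under 0.05, 4 were lower (10.3%) and 0 higher, namely the nucleolar helicase Ddx21 (-0.78 ± 0.18, SE), Bop1 (-0.74), Nop10 (-0.50) and nucleolin, Ncl (-0.50), of which Ncl was named because it completes the count. The Bop1 probe was dim, detected on 3 Agt Tg and 4 Wt arrays.

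Of 28 translation factors 11 were lower, with a median of 0.04. The poly(A)-binding protein gene Pabpc1 was lower (-0.79 ± 0.24) and the elongation factor gene Eef2 higher (0.58 ± 0.19, SE) at unadjusted p under 0.05, which is 3.57% of the list in each direction. Both messages carry a TOP motif. Of 13 TOP messages other than the members, the ribosomal protein gene Fau among them, 9 were lower, with a median of -0.08. At that threshold 2 were lower (15.4%) and 1 higher (7.69%). The second lower one was Hnrnpa1 (-1.13 ± 0.39, SE), through a dim probe detected on 3 Agt Tg and 4 Wt arrays. Of 17 genes of the mTORC1 and S6 kinase pathway 10 were lower, with a median of -0.04, and 2 were lower (11.8%) at unadjusted p under 0.05. These were Eif4ebp1, which encodes an inhibitor of translation that mTORC1 switches off (-0.65 ± 0.21), and Lamtor2, part of the lysosomal anchor of mTORC1 (-0.59 ± 0.22, SE). The Lamtor2 probe was dim, detected on 3 Agt Tg and 4 Wt arrays. The symbol rule leaves out some genes of the ribosome and its relatives. Rps3a1, which encodes a core protein of the small subunit, differed by -0.88 ± 0.36 (SE, limma adjusted p = 0.481), a larger difference than that of any member compared under this background correction, through a dim probe detected on 3 Agt Tg and 4 Wt arrays. Fau, which encodes another small subunit protein fused to a ubiquitin-like one, differed by -0.21 ± 0.16, and Rpl7l1, a relative of Rpl7, by -0.08 ± 0.16 (SE).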

How the data were processed

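Total RNA was amplified, labelled with biotin and hybridised to MouseRef-8 v2.0 BeadChips. The authors deposited linear intensity values summarised over beads, each with its detection p-value. The authors also deposited log2 values made with lumi (version and settings not given in the sources used here), which were quantile normalized and not background-corrected.

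Groups and replicate numbers came from the labels. Of 25696 probes, 23978 had 1 gene symbol and 1718 had none in the platform annotation used here. With limma 3.58.1 in R 4.3.3, normexp background correction (negative controls were inferred through the detection p-values) preceded quantile normalization, with 16 as offset. Probes at detection p under 0.05 on at least 4 of 8 arrays were kept (11624, 45.2%). The fit used lmFit and eBayes (trend), unblocked, with Benjamini-Hochberg adjustment over these probes. The brightest kept probe stood for a gene. Differences are Agt Tg minus Wt in normalized log2 intensity, and SD, SE and n refer to arrays. Background correction and the offset make differences of dim probes uncertain. The steps were tested on simulated data.

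The members and all gene lists were chosen with earlier results of these data known, so lists are described by counts and medians, without a test. Named members were the 10 lower and 10 higher of smallest p, the P-stalk genes, Rps6, Rpl13a, close relatives, members whose probes differ in sign and members not kept, and, in each related list, the 3 genes that had the lowest p or fewer. Other genes in the text are examples chosen after their values were seen. Promoter windows were matched by Entrez ID to RefSeq on GRCm38.p6 with Python 3.11.15 and pandas 2.3.3. Of 81 protein-coding RefSeq members, 21 were not in the array annotation and are not analysed here. Alternatives were the authors' log2 values, intensities without background correction, scaling by the median, 50 as offset, no filter or a stricter one (detection p under 0.01, all 8 arrays), probes averaged per gene, eBayes robust or without trend, array weights, a replicate block and the omission of each array.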

Additional observations from a re-analysis of the deposited data

Results flagged for a closer look

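Groups of 4 arrays were examined for the named members and for the means of all, large and small subunit members. In 5 of 60 such groups, all of named members, 1 array stood far from the other 3 by Dixon's criterion. Chance meets this criterion in about 1 of 20 separate groups, but members varied together across arrays, so these groups are not separate. Rps24 read 12.6 on Agt Tg replicate 4 and 12.85 to 12.9 on the other Agt Tg arrays. Rpl36al read 12.66 on Agt Tg replicate 2 and 12.92 to 12.96 on the others. Rpl29 read 11.57 on Wt replicate 3 and 10.53 to 10.69 on the other Wt arrays. Rplp1 read 15.14 on Agt Tg replicate 2 against 15.22 on the others, and 15.22 on Wt replicate 1 against 15.18, steps that the quantile scale sets at its top ranks.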

How the results depend on the processing

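The count of members at adjusted p under 0.05 was 0 in every alternative run (10 at unadjusted p under 0.05). Omitting single arrays gave unadjusted counts of 4 to 14, beside 3.77% to 6.69% of all genes lower. The other alternatives listed in the methods gave 8 to 13 (4.61% to 9.81%), and the T and NK cell marker covariate gave 3 lower and 1 higher. Of these counts, 1 member was higher on omitting Agt Tg replicate 2 (3.49% of all genes) or Wt replicate 3 (4.61%), and 2 with array weights (5.18%). Members without overlap numbered 4 to 10 over the omissions of single arrays, beside 4.24% to 6.08% of all genes lower and 3.87% to 6.25% higher. The median ran from -0.21 to -0.12 for members, -0.23 to -0.10 for the large and -0.23 to -0.10 for the small subunit over the same omissions. Of the 53 members, 34 were lower and 4 higher in all 20 settings, those of the covariates left aside. With the replicate block the count was 13 at unadjusted p, all lower (6.49% of all genes), with 0 adjusted calls (lowest adjusted p 0.164). Same-numbered arrays correlated at 0.334, 0.389, -0.0366 and -0.0822 in their deviations, so the numbers were not taken as pairs.

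Small differences turned sign. Median scaling gave Rpl4 -0.0496, Rplp0 -0.0948, Rpl22 -0.0323, Rps24 -0.0323, Rps26 -0.0631 and Rpl23 -0.0346. The mean of a gene's probes gave Rps24 -0.13, Rpl23 -0.29 and Rps19 0.0622, since their probes differ in sign. Array weights gave Rps24 -0.0645 and Rpl23 -0.0596. The macrophage covariate gave Rps27l 0.00085 and Rps4x 0.0074. The T and NK cell covariate gave Rpl22 -0.0383, Rps6 0.0466, Rps27l 0.0250 and Rps4x 0.0019. Over single omissions Rps24 ran from -0.12 to 0.11, Rps26 from -0.0820 to 0.144, Rpl23 from -0.096 to 0.191, Rps27l from -0.246 to 0.0271 and Rps4x from -0.0728 to 0.0292. Apart from the probes that differ in sign, the cause was not tested. The 4 arrays per group limit precision, and the top of the quantile scale leaves Rplp1 little room to differ.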
